A study of Mus musculus with 8 samples.

Results

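Genes of the poly(ADP-ribose) polymerase (PARP) family and *Dtx3l*, which encodes a partner of PARP9, were followed in CD11b+ cells of mouse brain. The 7 genes were chosen by name from the 20308 genes in the count files, namely the 5 interferon-induced genes *Parp9*, *Dtx3l*, *Parp14*, *Parp10* and *Parp12*, and, for comparison, *Parp1* and *Parp2*. All 7 passed the filter on low counts and were among the 13407 genes tested, with between 384 and 2310 counts in each library. The study compared 4 mice that overexpress colony-stimulating factor 1 (CSF1 OE) with 4 control mice, all C57Bl/6 X CD1 F1 animals of postnatal day 14 or 15. CSF1, the growth factor on which microglia depend, was secreted in the CSF1 OE mice from a transgene in a subset of GFAP+ cells, which are mainly astrocytes. The transgenes that the control mice carried are not given in the labels. CD11b, a surface protein of microglia and other myeloid cells, was used to enrich cells on magnetic beads from the right hemisphere of each brain, and each mouse gave 1 RNA library.

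PARP enzymes attach ADP-ribose, taken from NAD, to proteins and nucleic acids. *Parp1* and *Parp2* encode nuclear enzymes that bind DNA breaks, build chains of ADP-ribose there and recruit repair proteins. *Parp9*, *Parp10*, *Parp12* and *Parp14* encode proteins that add single ADP-ribose units or read them, and their transcription rises in response to type I or type II interferon. PARP9 works as a complex with DTX3L, a ubiquitin ligase of the Deltex family.

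The genes *Parp14*, *Dtx3l* and *Parp9* lie together. On mouse chromosome 16 (GRCm38, GENCODE M21), *Parp14* runs on the minus strand from 35832874 to 35871544, *Dtx3l* on the minus strand from 35926511 to 35939151, and *Parp9* on the plus strand from 35938470 to 35972605. The group spans 139732 bases. *Parp9* and *Dtx3l* are divergent genes whose starts overlap by 682 bases, of which 458 are exonic in both. These make up 9.40% of the exon bases of *Parp9* and 8% of those of *Dtx3l*. The library kit does not mark strand, so reads from these bases cannot be assigned to one of the pair from their strand. The other members stand apart, with *Parp10* on chromosome 15 (76231174 to 76243441), *Parp12* on chromosome 6 (39086410 to 39118349), *Parp1* on chromosome 1 (180568924 to 180601254) and *Parp2* on chromosome 14 (50807841 to 50821301). *Parp10* shares 205 exon bases (4.80% of its own) with *Plec* on the same strand.

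Promoter windows from RefSeq (GRCm38.p6, 250 bases before to 50 after a start) were matched for 4 of the 7 members, *Dtx3l*, *Parp12*, *Parp1* and *Parp2*. The stretches before their starts that lie in no exon are shown so that the windows searched for interferon response motifs can be set side by side for interferon-induced and DNA-repair members. Each reads 5′ to 3′ on the strand of the gene, and capitals mark CG dinucleotides. The *Dtx3l* stretch, chr16:35939207-35939277, is also in the first intron of *Parp9*. The others are chr6:39118350-39118469 for *Parp12*, chr1:180568771-180568890 for *Parp1* and chr14:50807721-50807840 for *Parp2*.
Dtx3l: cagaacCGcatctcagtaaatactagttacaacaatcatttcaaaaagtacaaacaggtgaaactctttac
Parp12: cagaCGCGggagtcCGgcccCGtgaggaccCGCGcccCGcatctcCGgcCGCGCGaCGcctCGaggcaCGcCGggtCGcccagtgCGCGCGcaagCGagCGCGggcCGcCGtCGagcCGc
Parp1: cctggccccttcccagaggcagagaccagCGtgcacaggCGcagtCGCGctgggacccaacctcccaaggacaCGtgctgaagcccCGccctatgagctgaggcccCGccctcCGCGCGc
Parp2: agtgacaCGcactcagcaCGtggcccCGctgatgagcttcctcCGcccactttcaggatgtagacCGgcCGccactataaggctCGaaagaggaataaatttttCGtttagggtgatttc

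The *Parp12* stretch was the richest of these in CG, with 26 in 120 bases, against 10 in *Parp1*, 8 in *Parp2* and 1 in the 71 bases of *Dtx3l*. In their whole windows, the 4 genes held 46 (*Parp12*), 25 (*Parp2*), 20 (*Parp1*) and 17 (*Dtx3l*), where the median of all 32851 windows was 7. Each window was searched on both strands for the interferon-stimulated response element, taken as GAAA, any 2 bases and GAAA. It was also searched for the gamma-activated sequence TTCNNNGAA. Neither was found in any of the 4 windows. The response element was in 3.44% of all windows and in 17 of the 28 windows (60.7%) of other interferon-induced genes, and the gamma-activated sequence was in 8.30% of all windows and in 5 of those 28. No match says only that these letters are not in these 300 bases.

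*Parp14*, which encodes a large enzyme that reads ADP-ribose through its macrodomains, had the largest difference of the members. It was at 95.5, 90.3, 87.7 and 68.5 CPM (counts scaled to the TMM-normalized library size) in control mice 1827, 1872, 1874 and 1934. In CSF1 OE mice 1931, 1932, 1936 and 2019 it was at 117, 130, 149 and 148 CPM. Every CSF1 OE mouse was above every control mouse, and control mouse 1934 was the lowest. The means were 85.5 ± 11.8 CPM and 136 ± 15.2 CPM (SD, n = 4 each), a fold change of 1.59. The log2 fold change was 0.67 (standard error 0.12, 95% interval 0.39 to 0.95), with an unadjusted p of 0.00039 and an adjusted p of 0.0558 from edgeR's quasi-likelihood test, so that *Parp14* was not called. Calls required that p, adjusted by Benjamini-Hochberg over all genes, be under 0.05 and that the fold be below 0.7 or above its reciprocal, and 59 of the genes tested (0.44%) met this. *Parp14* stood at place 91 of all genes by p, and 2.19% of genes had a higher log2 fold change. It was called without control mouse 1827 (log2 fold change 0.73, adjusted p = 0.0480 from edgeR), by DESeq2 (adjusted p = 5.28e-05) and by limma on the authors' normalized values (adjusted p = 0.0436). DESeq2 called 1.98% of the genes it tested as higher. Over all genes and in either direction, limma called 104 and edgeR without control mouse 1827 called 164.

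*Parp9*, whose protein has macrodomains and pairs with DTX3L, came next. Control mice had 58.0, 49.2, 60.3 and 35.4 CPM of it in the same order, and CSF1 OE mice 68.7, 62.9, 81.3 and 80.8 CPM. The genotypes did not overlap, although the gap between control mouse 1874 and CSF1 OE mouse 1932 was small. Control mice averaged 50.7 ± 11.3 CPM and CSF1 OE mice 73.4 ± 9.13 CPM (n = 4 each). On the log2 scale the fold change was 0.53 (standard error 0.17, 95% interval 0.16 to 0.91). Its unadjusted p was 0.0109 and its adjusted p from edgeR 0.174. Over all genes, every CSF1 OE mouse was above every control mouse in 6.84%, and among the interferon-induced members in 2 of 5, *Parp14* and *Parp9*.

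*Dtx3l*, the ubiquitin ligase partner of *Parp9*, did not separate the genotypes. It was at 38.6, 39.9, 35.4 and 23.0 CPM in control mice and at 31.9, 37.0, 38.8 and 48.9 CPM in CSF1 OE mice. Apart from control mouse 1934, which was low, and CSF1 OE mouse 2019, which was high, the 6 remaining mice were intermixed. The log2 fold change was 0.19 (standard error 0.19, 95% interval -0.24 to 0.63, adjusted p = 0.642 from edgeR), and it was 0.055 without control mouse 1934 and 0.070 without CSF1 OE mouse 2019.

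*Parp12*, a zinc finger enzyme with antiviral activity, was measured at 56.6, 53.9, 67.8 and 41.3 CPM in control mice and at 72.0, 64.4, 78.6 and 74.6 CPM in CSF1 OE mice. Of the 4 CSF1 OE mice, 3 were above the highest control mouse, 1874, and the groups overlapped through CSF1 OE mouse 1932. The log2 fold change of *Parp12* was 0.40 (standard error 0.14, 95% interval 0.081 to 0.72), with an unadjusted p of 0.0196 and an adjusted p of 0.213 from edgeR. *Parp12* was thus the third interferon-induced member with an unadjusted p under 0.05, making 3 of 5, where 10.1% of all genes tested had such a p and were higher in CSF1 OE mice.

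*Parp10*, which encodes an enzyme that adds single ADP-ribose units, showed the smallest difference of the 5. Control mice were at 37.5, 41.7, 34.6 and 27.3 CPM and CSF1 OE mice at 37.0, 35.6, 38.4 and 43.5 CPM. Control mice 1874 and 1934 were below every CSF1 OE mouse, CSF1 OE mouse 2019 was above every control mouse, and the other 5 mice were intermixed. The log2 fold change was 0.13 (standard error 0.13, 95% interval -0.17 to 0.44, adjusted p = 0.658 from edgeR). It was 0.037 without control mouse 1934, 0.071 without CSF1 OE mouse 2019 and 0.22 without control mouse 1872.

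The DNA-break enzymes also overlapped between genotypes. *Parp1* was at 155, 130, 121 and 113 CPM in control mice and at 158, 146, 147 and 155 CPM in CSF1 OE mice, so that control mouse 1827 was as high as the CSF1 OE mice and the other control mice were below them. Its log2 fold change was 0.22 (standard error 0.10, 95% interval -0.0099 to 0.46, adjusted p = 0.317 from edgeR). *Parp2* varied least of the 7, from 31.0 to 33.3 CPM in control and from 31.9 to 36.2 CPM in CSF1 OE mice. The log2 fold change of *Parp2* was 0.11 (standard error 0.080, 95% interval -0.068 to 0.29, adjusted p = 0.511 from edgeR). Of these 2 genes 0 were called by edgeR, DESeq2 or limma, and 0 had an unadjusted p under 0.05 in edgeR with all 8 mice. The unadjusted p of *Parp1* was 0.0479 in DESeq2, 0.0427 in limma and 0.0047 in edgeR without control mouse 1827 (log2 fold change 0.32, adjusted p = 0.0992). All 7 members had a positive log2 fold change, and the median of all genes tested was -0.03.

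**Figure D1:**
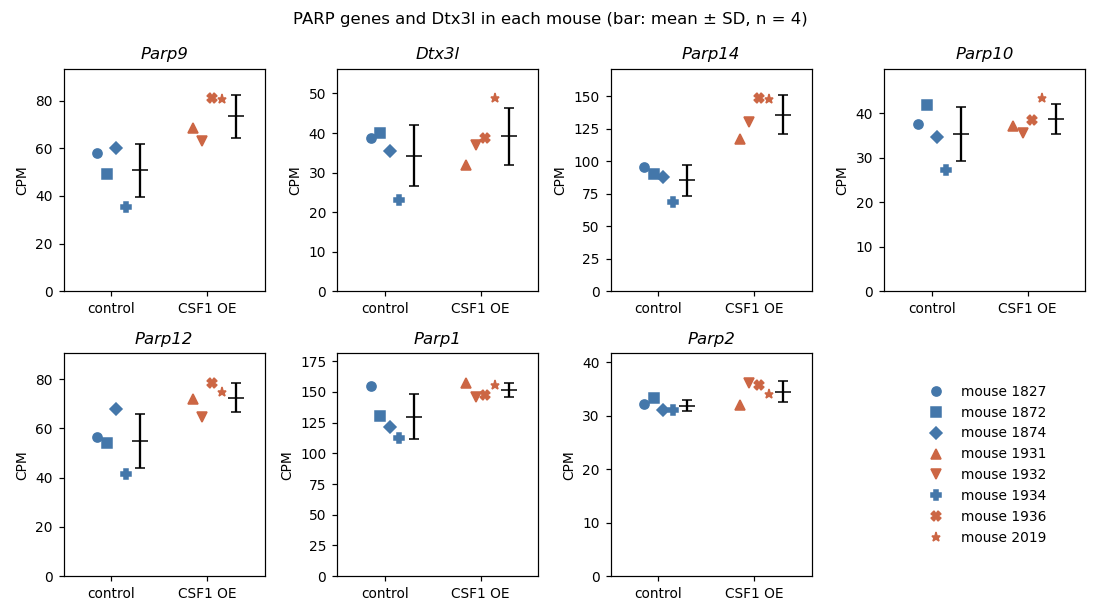
CPM (linear axis from 0) of the 7 genes in each of the 8 mice, with 1 marker shape per mouse, control in blue and CSF1 OE in orange, and the mean ± SD of 4 mice as a black bar. The genotypes are apart in *Parp9* and *Parp14* and overlap in the other 5 genes, and control mouse 1934 is the lowest control mouse in 6 of 7.

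Control mouse 1934 stood apart from the other control libraries. Summed over 10 microglia markers it had 22170 CPM, where the other control mice had 33832 to 39027 CPM and CSF1 OE mice 28564 to 40076 CPM. It was also the highest of the 8 libraries in the summed markers of oligodendrocyte lineage (5691 CPM), neurons (347 CPM) and endothelial and mural cells (1380 CPM). CSF1 OE mouse 2019 was at the other end, with the highest microglia sum of the 8 (40076 CPM). Its sums for oligodendrocyte lineage (1492 CPM), neurons (43.8 CPM) and endothelial and mural cells (433 CPM) were the lowest of the 8. In a bulk library, fewer cells of a type and less RNA per cell cannot be told apart. Each member was therefore also divided by the microglia sum of its library, a scaling chosen after these values were seen. *Parp9* and *Parp14* again separated the genotypes, with log2 differences of 0.57 and 0.69 (two-sided exact permutation test, p = 0.0286 for each, the smallest that 4 mice against 4 allow). The same was true of 1.72% of all genes. The other 5 members overlapped on this scale, with log2 differences from 0.13 (*Parp2*) to 0.43 (*Parp12*). Without control mouse 1934, the log2 fold changes of *Parp14* and *Parp9* were 0.59 and 0.41, and without CSF1 OE mouse 2019 they were 0.63 and 0.49.

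The animal numbers fall into a range from 1931 to 1936, with 1 control and 3 CSF1 OE mice, and other numbers, with 3 control mice and 1 CSF1 OE mouse. Within these ranges the log2 difference of *Parp14* was 0.94 and 0.70, that of *Parp9* 0.99 and 0.54, that of *Parp12* 0.79 and 0.33, and that of *Dtx3l* 0.63 and 0.37. All 7 members were higher in CSF1 OE mice in both ranges. The only control mouse of the first range is 1934, and the only CSF1 OE mouse of the other numbers is 2019. Their microglia sums were the lowest and the highest of the 8 libraries, at 22170 and 40076 CPM. The part of this in the values by range and in the fit that follows was not tested. With a term for the range in the edgeR fit, 3 of 5 interferon-induced members were called (*Parp9*, *Parp14* and *Parp12*, with adjusted p of 0.0261, 0.0249 and 0.0376), where 2.25% of all genes were called as higher. In this fit 5 of 5 had an unadjusted p under 0.05, where 13.6% of all genes had such a p and were higher. *Parp1* did too (log2 fold change 0.31, unadjusted p = 0.0203, adjusted p = 0.0926), close to *Parp10* (log2 fold change 0.32, unadjusted p = 0.0157, adjusted p = 0.0808). *Dtx3l* then had a log2 fold change of 0.50 (adjusted p = 0.0321 from edgeR), just under the fold threshold. What the range stands for is not given in the labels.

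Whether the interferon-induced members moved differently from the DNA-break enzymes was tested as the log2 ratio of their CPM within each library, which does not depend on how libraries are scaled. The ratio of *Parp14* to *Parp1* was -0.60 ± 0.13 in control and -0.16 ± 0.19 in CSF1 OE mice, a difference of 0.44. Its ratio to *Parp2* was 1.41 ± 0.19 and 1.97 ± 0.14, a difference of 0.56. In both, every CSF1 OE mouse was above every control mouse, and the two-sided exact permutation p of 0.0286 became 0.143 after adjustment over the 10 ratios, where a ratio alone at this p, the smallest possible, cannot pass. The ratio of *Parp9* differed by 0.32 against *Parp1* (exact p = 0.114, adjusted 0.229) and by 0.44 against *Parp2* (exact p = 0.0857, adjusted 0.214). For *Parp12* the differences were 0.18 (exact p = 0.286) and 0.31 (exact p = 0.0571). The ratios of *Dtx3l* and *Parp10* differed by -0.09 to 0.10, with exact permutation p from 0.457 to 0.971. Relative to *Parp1* and *Parp2*, therefore, the values of *Parp14* were separated by genotype and those of the other 4 overlapped. None of the 10 ratios had an adjusted p under 0.05. The ratios of *Parp14*, at the smallest possible exact p, could not have reached it unless more of the 10 separated. The share of all genes whose ratio to *Parp1* or *Parp2* separates in this way was not computed.

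**Figure D2:**
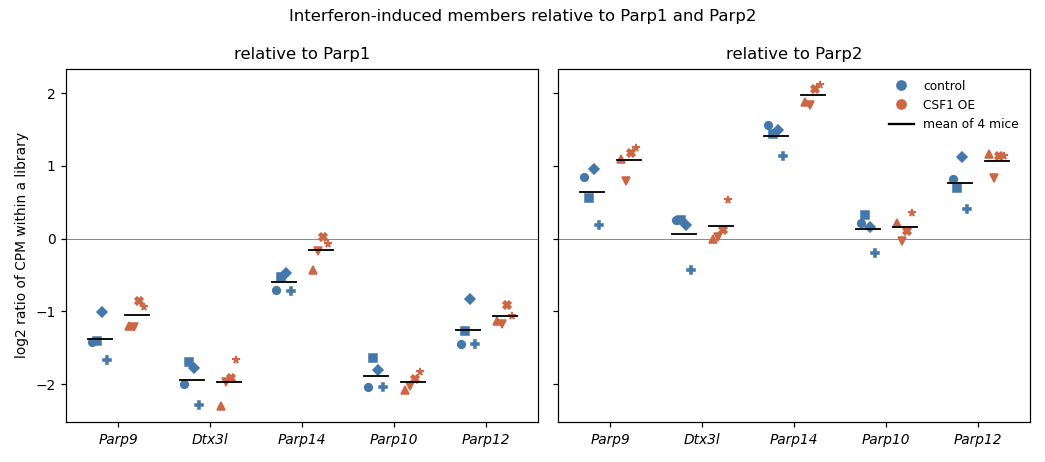
Log2 ratio of CPM of each interferon-induced gene to *Parp1* (left) and to *Parp2* (right) within each library, with 1 marker per mouse (shapes as in the plot of CPM by mouse), control in blue, CSF1 OE in orange and the mean of 4 mice as a line. The CSF1 OE mice lie above all control mice for *Parp14* in both panels, by 0.44 and 0.56 on average, and are intermixed with control mice for *Dtx3l* and *Parp10*.

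The interferon-induced members were also compared among themselves, in 10 pairs examined after the values were seen. None of the pairs had an adjusted p under 0.05. The smallest two-sided exact permutation p that 4 mice against 4 allow is 0.0286. A few pairs that separate completely cannot pass after adjustment over the 10, so the adjusted p cannot decide whether they differ. How often other pairs of genes separate in this way was not computed. The ratio of *Parp14* to *Parp10* was higher in every CSF1 OE mouse, by 0.53, as was that of *Parp9* to *Parp10*, by 0.41, and the ratio of *Dtx3l* to *Parp14* was lower in every one, by -0.47 (two-sided exact permutation test, p = 0.0286 and adjusted p = 0.0952 for each over the 10 pairs). The ratio of the partners *Parp9* to *Dtx3l* differed by 0.35 (exact p = 0.0857, adjusted p = 0.163), with 2 of 4 CSF1 OE mice above the highest control mouse.

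Over the 8 libraries, *Parp9* and *Parp12* had the closest pattern of the members (Pearson r of log2 CPM 0.97, and 0.95 after the genotype means were removed). *Dtx3l* was closest to *Parp10* (0.94 and 0.93) rather than to *Parp9* (0.75 and 0.79), and *Parp1* and *Parp2* were at 0.48 and 0.02. These 8 points share the libraries, and with them the differences in summed cell type markers. Among all other genes, the 3 most like *Parp14* were *Irf9*, a subunit of the factor that type I interferon activates (r = 0.98), *B2m*, the light chain of MHC class I (0.97), and *Tspo* (0.97). Nearest to *Parp9* were *Vamp8* (0.98), *Tmem209* (0.97) and *H2-T24* (0.97), and nearest to *Parp12* were *Vamp8* (0.98), *Syf2* (0.97) and *Dnajc2* (0.96). *Dtx3l* was most like *Csrp2bp*, *Ctps2* and *Znfx1* (0.96 to 0.97), *Parp10* like *Ctps2*, *Tlr12* and *Usp35* (0.97 to 0.99), *Parp1* like *Wdfy4*, *Lrrc3* and *Emg1* (each 0.99), and *Parp2* like *Ddx60*, *Plekha4* and *Tmem251* (0.95 to 0.97).

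Levels were compared between genes as CPM per kilobase of exon. In control mice, the order of the members was *Parp1* (24.5 ± 3.46), *Parp12* (13.8 ± 2.72), *Parp9* (10.4 ± 2.31), *Parp14* (9.19 ± 1.27), *Parp2* (8.79 ± 0.29), *Parp10* (8.25 ± 1.42) and *Dtx3l* (5.98 ± 1.35). Among neighbours in this order, the ranges of the 4 control mice were apart for *Parp1* and *Parp12* and overlapped in the other 5 pairs. In CSF1 OE mice the order was the same, with *Parp1* at 28.6 ± 1.11, *Parp12* at 18.1 ± 1.49, *Parp9* at 15.1 ± 1.87, *Parp14* at 14.6 ± 1.63, *Parp2* at 9.51 ± 0.54, *Parp10* at 9.04 ± 0.80 and *Dtx3l* at 6.84 ± 1.25. There the ranges of *Parp14* and *Parp2* were apart as well. With the 10 other PARP family genes, *Tiparp* (31.2 ± 8.57) and the tankyrase *Tnks2* (26.8 ± 2.0) were the only genes above *Parp1* in control mice, and *Parp16* was the lowest (1.92 ± 0.19).

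Of those 10 other family genes, which were not sorted by response to interferon, 0 were called, and their median log2 fold change was 0.01. The highest was *Zc3hav1*, the zinc finger antiviral protein, which has an inactive PARP domain. Control mice had 72.7 ± 7.24 CPM of it and CSF1 OE mice 94.1 ± 9.24 CPM, without overlap (log2 fold change 0.37, standard error 0.10, adjusted p = 0.124 from edgeR). The lowest was *Parp6*, at 31.7 ± 5.28 and 24.5 ± 3.70 CPM (log2 fold change -0.37, adjusted p = 0.260 from edgeR). These were the only genes of the 10 with an unadjusted p under 0.05, 1 in each direction, and DESeq2 and limma also called 0 of the 10.

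**Figure D3:**
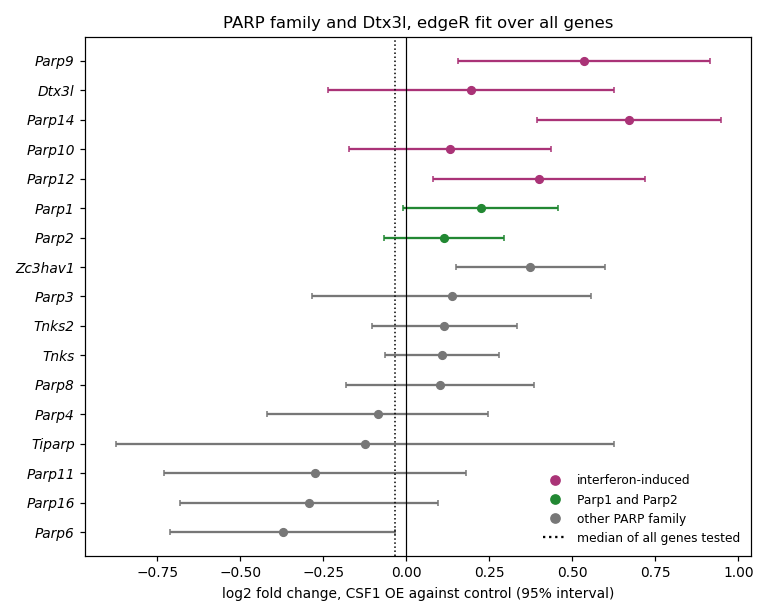
Log2 fold change (CSF1 OE against control, 4 mice each) of the 7 members and the 10 other PARP family genes, with 95% intervals from the edgeR fit over all genes. The solid line marks 0 and the dotted line the median of all genes tested (-0.03). The intervals of *Parp14*, *Parp9*, *Parp12* and *Zc3hav1* lie above 0, those of *Dtx3l*, *Parp10*, *Parp1* and *Parp2* include it, and that of *Parp6* lies below.

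The genes around the enzymes were described from lists. Among 6 enzymes that remove ADP-ribose, 0 were called and 0 had an unadjusted p under 0.05, and log2 fold changes ran from -0.42 (*Macrod2*) to 0.36 (*Macrod1*) with a median of 0.02. Of 10 genes of NAD synthesis and use, 0 were called and 1, *Cd38*, had an unadjusted p under 0.05. This NAD glycohydrolase was the lowest, at 21.7 ± 3.64 and 15.1 ± 4.15 CPM (log2 fold change -0.52, adjusted p = 0.247 from edgeR), and the highest was *Nadk*, which makes NADP (0.20). The 4 other Deltex genes were between -0.41 (*Dtx1*) and -0.05 (*Dtx4*), with 0 called and 0 at an unadjusted p under 0.05. DESeq2 and limma called 0 genes of these 3 lists. Of all genes tested, 10.1% had an unadjusted p under 0.05 and were higher in CSF1 OE mice. Among 12 partners in single-strand break repair, 0 were called and 4 had such a p, all higher. They were *Lig1* (log2 fold change 0.58) and *Fen1* (0.56), which also serve DNA replication, the remodeller *Chd1l* (0.22), and *Hpf1*, the cofactor that directs PARP1 to serine (0.29, listed in the files under an older name), the last 3 chosen after their values were seen. *Aplf* was the lowest at -0.23. DESeq2 called *Fen1* alone of the 12, and limma 0.

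Other interferon-induced genes had a larger median difference than the PARP members, a comparison that was not tested. Of the 32 listed, 31 were matched and tested and *Mx1* was not analysed here. All 31 had a positive log2 fold change, 29 had an unadjusted p under 0.05, 21 did not overlap between genotypes and 5 were called, with a median log2 fold change of 0.95. The called genes were *Zbp1* (2.06), *Isg15* (1.85), *Ifit1* (1.85), *Dhx58* (1.45) and *Eif2ak2* (0.91), with adjusted p from 0.0365 to 0.0431 from edgeR. Over all genes tested in edgeR, 10.1% were higher at an unadjusted p under 0.05. Every CSF1 OE mouse was above every control mouse in 6.84%, and 0.44% were called in either direction. The 31 genes, like the members, were listed with earlier results of these data known. Their counts and median may partly reflect that choice. DESeq2 called 21 of the 31 and limma 11, where DESeq2 called 1.98% of all genes as higher and limma called 104 genes in either direction. The highest log2 fold change was that of *Ifi44* (2.63) and the lowest that of *Helz2* (0.24). Of these 31 genes, 22 had a higher log2 fold change than *Parp14*, 25 than *Parp9*, 28 than *Parp12*, and 31 than *Dtx3l* and *Parp10*. By adjusted p, 5 were lower than *Parp14*. In control mice 0 of the 31 had a higher CPM than *Parp14* and 1 than *Parp9*. These CPM were not divided by exon length, which favours long genes, and *Parp14* has 9306 exon bases.

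Among 14 genes of interferon signalling, 0 were called, 6 had an unadjusted p under 0.05, all higher, and the median was 0.22. Such a p with a higher level was found for 10.1% of all genes tested. *Usp18*, a feedback inhibitor of the interferon receptor, was the highest, with 2.59 ± 1.17 CPM in controls and 10.9 ± 4.79 CPM in CSF1 OE mice (log2 fold change 2.08, adjusted p = 0.0558 from edgeR). *Irf9* was at 45.2 ± 7.20 and 72.3 ± 11.2 CPM (log2 fold change 0.68, adjusted p = 0.0724 from edgeR), and *Ifngr1*, a receptor chain for type II interferon, was the lowest at -0.04. DESeq2 and limma both called *Usp18* and *Irf7*, the latter named after its values were seen, and DESeq2 also called *Irf9*. The transcripts of 10 interferons were at or near 0, with a sum of at most 0.336 CPM in a control mouse and 0.735 CPM in a CSF1 OE mouse, and 7 of the 10 had no count in any library.

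**Figure D4:**
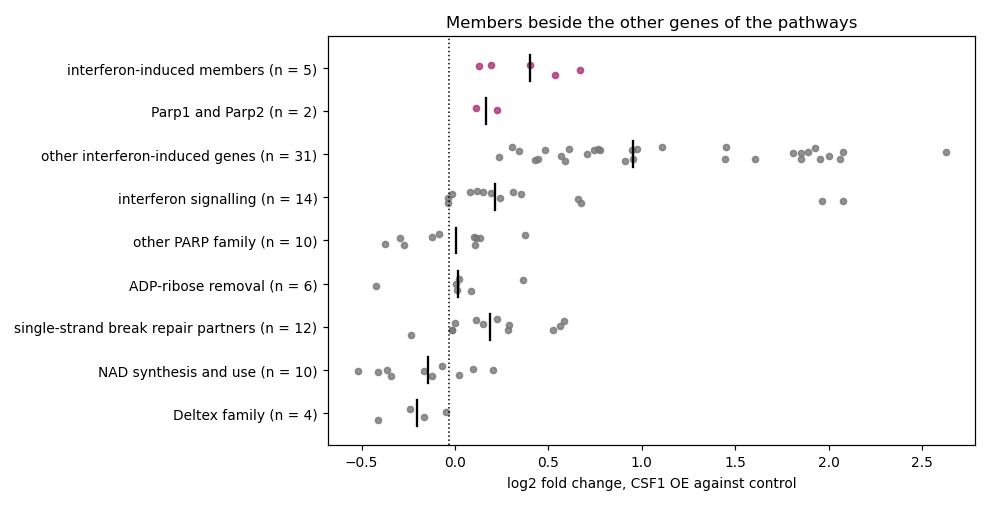
Log2 fold change (CSF1 OE against control) of each tested gene in 9 lists, with 1 point per gene, the median of a list as a black bar, the median of all genes tested as a dotted line, and vertical scatter added only to part the points. The interferon-induced PARP genes have a median of 0.40 and the 31 other interferon-induced genes one of 0.95. *Parp14*, *Parp9* and *Parp12* lie within the range of the 31, and *Dtx3l* and *Parp10* lie below it.

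T, NK and B cell markers were at 0.71 to 1.74 CPM in summed level in control mice and at 1.76 to 3.01 CPM in CSF1 OE mice. Only *Klrb1c* of the 9 passed the filter, and it held most of the difference, averaging 0.43 ± 0.18 CPM in controls and 1.25 ± 0.54 CPM in CSF1 OE mice (log2 fold change 1.53, adjusted p = 0.134 from edgeR). *Ncr1* had no count in any library, and *Cd3e* was at 0 in all CSF1 OE mice. Over all genes, 6.44% had an unadjusted p under 0.05 and were lower in CSF1 OE mice. Of 7 border macrophage markers 5 were so (summed level 1557 to 2477 CPM in control, 1252 to 1871 CPM in CSF1 OE mice), as were 3 of 11 endothelial and mural markers (802 to 1380 CPM and 433 to 1008 CPM). In each list edgeR called 0 and DESeq2 1, *Cd163* (log2 fold change -1.11) and *Ly6c1* (-0.86). All 5 red blood cell markers tested had a negative log2 fold change, with a median of -1.58 and 0 at an unadjusted p under 0.05 (summed level 252 to 936 CPM in control, 39.0 to 435 CPM in CSF1 OE mice). The part of these markers in the results was not tested. Of the 10 microglia markers 5 had a positive and 5 a negative log2 fold change, from -0.63 (*Fcrls*) to 0.60 (*Aif1*, without overlap), with a median of 0.01. edgeR called 0 of them, and DESeq2 called *Aif1* (adjusted p = 0.00638) and *Fcrls* (adjusted p = 0.0243). The overexpressed gene is in GFAP+ cells, so that these libraries do not check it. In the enriched cells, *Csf1* averaged 282 ± 98.7 CPM in controls and 322 ± 107 CPM in CSF1 OE mice (log2 fold change 0.19, adjusted p = 0.796 from edgeR), and its receptor *Csf1r* had a log2 fold change of 0.05 (adjusted p = 0.914 from edgeR).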

How the data were processed

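Per the labels and the paper's methods, CD11b+ cells were enriched after myelin removal, and TruSeq v2 libraries, 1 per mouse with nothing pooled, were sequenced. The authors made the deposited expected counts per gene with Bowtie 1.0.0 and RSEM 1.2.7 (mm10, from the submitters' processing notes), which divides reads that fit several genes. The authors' deposited normalized values (a signal) are those counts divided by 1 size factor per mouse. Library totals were 12053280 to 15475488. No pair of libraries agreed within sampling noise (chi-square per gene 15.1 to 91.2 over 28 pairs). That same-genotype mice were separate animals is given by their numbers. Expected counts were rounded and tested with edgeR 4.0.16 in R 4.3.3 (TMM, filterByExpr, quasi-likelihood, Benjamini-Hochberg over all genes tested). The authors' EBSeq was not run. A prior count of 2 was added for log2 CPM. DESeq2 1.42.0 and limma 3.58.1 (trend, log2 of the normalized values with a pseudocount of 1) were alternatives, beside other filters, factors, an animal-number term and each mouse left out. Exact permutation tests were two-sided. The methods were tested on simulated data. The members and gene lists were chosen with earlier results of these data known. Named genes were the members, every called gene (up to 4) and both extremes of each list, the 3 genes most like each member, *Csf1* and *Csf1r*, and others where stated. Exon lengths and positions came from GENCODE M21.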

Additional observations from a re-analysis of the deposited data

How the results depend on the processing

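All 7 members stayed higher in CSF1 OE mice in all 15 refits. *Parp14* ranged in log2 fold change from 0.59 to 0.74 with mice left out in turn, and was past the threshold with DESeq2 (0.67), limma (0.68), the term for animal numbers (0.82) and without control mouse 1827 (0.73). Its adjusted p ranged from 5.28e-05 to 0.186. With the term for animal numbers, *Parp9* (0.77) and *Parp12* (0.56) also passed. The number of interferon-induced members called was 0, but 1 with DESeq2, 1 with limma, 3 with that term, and 0 to 1 with a mouse left out, and those with an unadjusted p under 0.05 went from 3 to 5 with that term, under which 13.6% of all genes had such a p and were higher, *Parp1* among them. Genes called over all genes were 59, but 427 with DESeq2, 19 with upper-quartile factors, 104 with limma, 1273 with the term, and 3 (without control mouse 1872 or 1874) to 164 (without control mouse 1827) with a mouse left out. Within numbers 1931 to 1936, the ratio to *Parp2* differed by 0.84 for *Parp9*, 0.79 for *Parp14*, 0.64 for *Parp12*, 0.48 for *Dtx3l* and 0.29 for *Parp10*, and that of *Parp9* to *Parp1* by 0.58. That range has 1 control mouse. The cause of these changes was not tested. No paired analysis was made, because the labels give no litter or preparation day by which mice could be paired. With 4 mice a group, the 95% intervals of *Dtx3l* and *Parp10* reach from below 0 to 0.63 and 0.44.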

Other observations

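Among the 31 other interferon-induced genes, those at a higher level in control mice had the smaller log2 fold changes (Pearson r between log2 control CPM and log2 fold change -0.75, Spearman rho -0.75, across genes, which are not independent replicates, and with control values on both axes). The 9 genes over 20 CPM in control mice had a median log2 fold change of 0.48 (0.31 to 0.95), and the 22 at or under it a median of 1.53 (0.24 to 2.63). The 5 interferon-induced PARP members are all over 20 CPM in control mice, and their log2 fold changes were 0.13 to 0.67. This split was chosen after the values were seen, and the CPM were not divided by exon length.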
